A study of Mus musculus with 15 samples.

Results

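The transcripts described here encode desmin and other proteins of the intermediate filament network of muscle. They are the 8 genes *Des*, *Vim*, *Nes*, *Synm*, *Sync*, *Plec*, *Dst* and *Lmna*, found among the 30672 genes of the count table by matching Ensembl identifiers to symbols of the GRCm38 annotation. RNA came from the tibialis anterior, a fast muscle of the lower hindlimb, of 15 male 129Pas mice at 7 weeks of age. The WT group (n = 4) was wild type and untreated, and the WT + TAM group (n = 4) was wild type and received tamoxifen (TAM), a selective oestrogen receptor modulator. The Mtm1-/y group (n = 4) was untreated and carried a disrupted X-linked *Mtm1*, the gene of the lipid phosphatase myotubularin whose loss causes X-linked myotubular myopathy. The Mtm1-/y + TAM group (n = 3) carried the same allele and received tamoxifen. Neither the dose nor the route or duration of tamoxifen is stated in the labels, which also do not say whether mice shared a litter.

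Intermediate filaments are rope-like polymers that give cells mechanical strength. In muscle fibres, desmin filaments wrap the Z-discs, link neighbouring myofibrils to each other and tie them to the sarcolemma, the mitochondria and the nuclei. Vimentin and nestin belong to immature fibres and to other cells of the tissue, synemin and syncoilin attach to desmin filaments, and plectin and dystonin are large linker proteins of the plakin family. Lamins A and C, both made from *Lmna*, are the intermediate filaments of the inner nuclear membrane. Myotubularin is known to bind desmin.

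*Des* lies on chromosome 1 (ENSMUSG00000026208, 75360329 to 75368579, plus strand, GRCm38) and *Vim* on chromosome 2 (ENSMUSG00000026728, 13573927 to 13582826, plus). *Nes* (ENSMUSG00000004891, 87971078 to 87980451, plus) and *Lmna* (ENSMUSG00000028063, 88480147 to 88509956, minus) lie on chromosome 3. *Synm* lies on chromosome 7 (ENSMUSG00000030554, 67730160 to 67759742, minus), *Sync* on chromosome 4 (ENSMUSG00000001333, 129287617 to 129308559, plus), *Plec* on chromosome 15 (ENSMUSG00000022565, 76170974 to 76232574, minus) and *Dst* on chromosome 1 (ENSMUSG00000026131, 33908225 to 34308661, plus). The counts are per gene over all exons, so lamin A and lamin C, and the many isoforms of plectin and dystonin, could not be separated. The exons of *Sync* overlap those of *Rbbp4* on the other strand over 27.3% of their bases, and those of *Des* overlap the antisense gene *Gm15179* over 5.86%. How the counting used strand is unknown here, so reads in these overlaps may be of either gene or uncounted.

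RefSeq promoter windows (GRCm38.p6, from the C57BL/6J reference and not the strain studied), each with 250 bases before a start site and 50 after it, were found for 7 of the 8 genes, in 9 windows. They are shown because several of these genes moved together, and a desmin promoter is a classical example of a muscle-specific one. The stretch before the *Des* start site covers chr1:75360042-75360291 on the plus strand and holds 67.2% G and C, with the only match to the muscle E-box CAGCTG in capitals.

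Des upstream: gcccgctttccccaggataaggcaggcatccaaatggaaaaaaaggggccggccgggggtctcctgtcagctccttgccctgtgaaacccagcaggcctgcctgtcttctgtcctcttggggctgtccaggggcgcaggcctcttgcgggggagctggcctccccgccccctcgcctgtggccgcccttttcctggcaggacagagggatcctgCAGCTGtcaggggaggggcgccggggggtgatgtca

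The short stretches around the matches in *Des* (chr1:75360244-75360273, plus), *Sync* (chr4:129287635-129287664, plus) and *Vim* (chr2:13574267-13574296, plus) were as follows, with CAGCTG in the first and second and the TATA box letters TATAAA in the third in capitals.

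Des site: agagggatcctgCAGCTGtcaggggagggg
Sync site: tggtgtccgctgCAGCTGgcagtgcggcgg
Vim site: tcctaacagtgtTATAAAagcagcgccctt

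The E-box letters CAGCTG, searched on both strands, were present in the windows of *Des* and *Sync* and in 16.3% of 32851 promoter windows of the same length. TATAAA was present in the window of *Vim* and in 13.6% of windows. The RUNX letters TGTGGT were present in 1 window of *Lmna* and in 16.8% of windows, and the MCAT letters CATTCC, present in 14.7% of windows, were in none of the 9. These matches are letters in a window and were not tested for binding.

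*Mtm1* was checked first against the labels. Its level was 15.3 ± 0.294 CPM (counts scaled to a common library size) in the WT group and 3.36 ± 0.338 CPM in the Mtm1-/y group (SD, n = 4 each), with no overlap of the libraries of the mutants and wild types, and its log2 fold change was -2.19 (SE 0.12, adjusted p 5.46e-08, edgeR). Libraries held 18042558 to 45823277 counts in total, and each of the 8 genes passed the filter on low counts that kept 15533 genes. Mtm1-/y replicate 1 and WT + TAM replicate 1 stood apart from their groups in a principal component analysis. Calls of the 8 genes that changed without these libraries are therefore given with and without them. In whole-muscle RNA, fewer cells of a type and less RNA per cell cannot be told apart. CPM here is scaled by the trimmed mean of M-values (TMM), and a call means a Benjamini-Hochberg adjusted p, over every gene tested, under 0.05.

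Levels of different genes were set beside each other per kilobase (kb) of exon. In WT muscle *Des* stood far above the other genes at 833.2 ± 53.9 CPM per kb (SD, n = 4), rank 39 of the 15533 tested genes. *Synm* followed at 113 ± 8.97 and *Plec* at 61.4 ± 7.58 CPM per kb, and these ranges did not touch those of their neighbours in the order. *Vim* (23.9 ± 7.83), *Sync* (19.5 ± 1.46) and *Nes* (17.6 ± 1.23) came next, and *Vim* overlapped *Sync* and *Sync* overlapped *Nes*. *Lmna* (11.8 ± 1.46) and *Dst* (9.01 ± 0.94) were last and overlapped each other. In Mtm1-/y muscle the order began again with *Des* (1753 ± 249.8), *Synm* (80.7 ± 24.8) and *Plec* (65.3 ± 2.61 CPM per kb), and *Synm* and *Plec* overlapped. *Sync* (37.6), *Lmna* (34.2) and *Nes* (33.9) then formed an overlapping middle group above *Vim* (18.9), which itself overlapped *Nes*, and *Dst* (7.69 CPM per kb) was again last. The plakins *Plec* and *Dst* have many alternative exons, so a level over all exon bases understates them. With the longest transcript as length, the order in WT muscle was the same. In Mtm1-/y muscle *Lmna* (50.5 CPM per kb) then came before *Sync* (46.2), and the plakins kept their places.

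The comparison of Mtm1-/y with WT asks what loss of *Mtm1* changed in this network in untreated muscle, and the mutants named in it are the untreated Mtm1-/y mice. *Des*, *Sync*, *Nes* and *Lmna* were higher in the mutants, by 2.10-fold, 1.93-fold, 1.93-fold and 2.90-fold, and none of the 8 was lower. *Synm*, *Vim*, *Plec* and *Dst* were not called. The 4 called genes of 8 compare with 30.4% of all tested genes called in either direction, 15.5% higher and 14.9% lower. The 8 genes were chosen with earlier results of these data known, so this count is a description and not an independent result. Over the 8 genes the log2 fold changes had a median of 0.52, and over all tested genes a median of 5e-04.

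**Figure D1:**
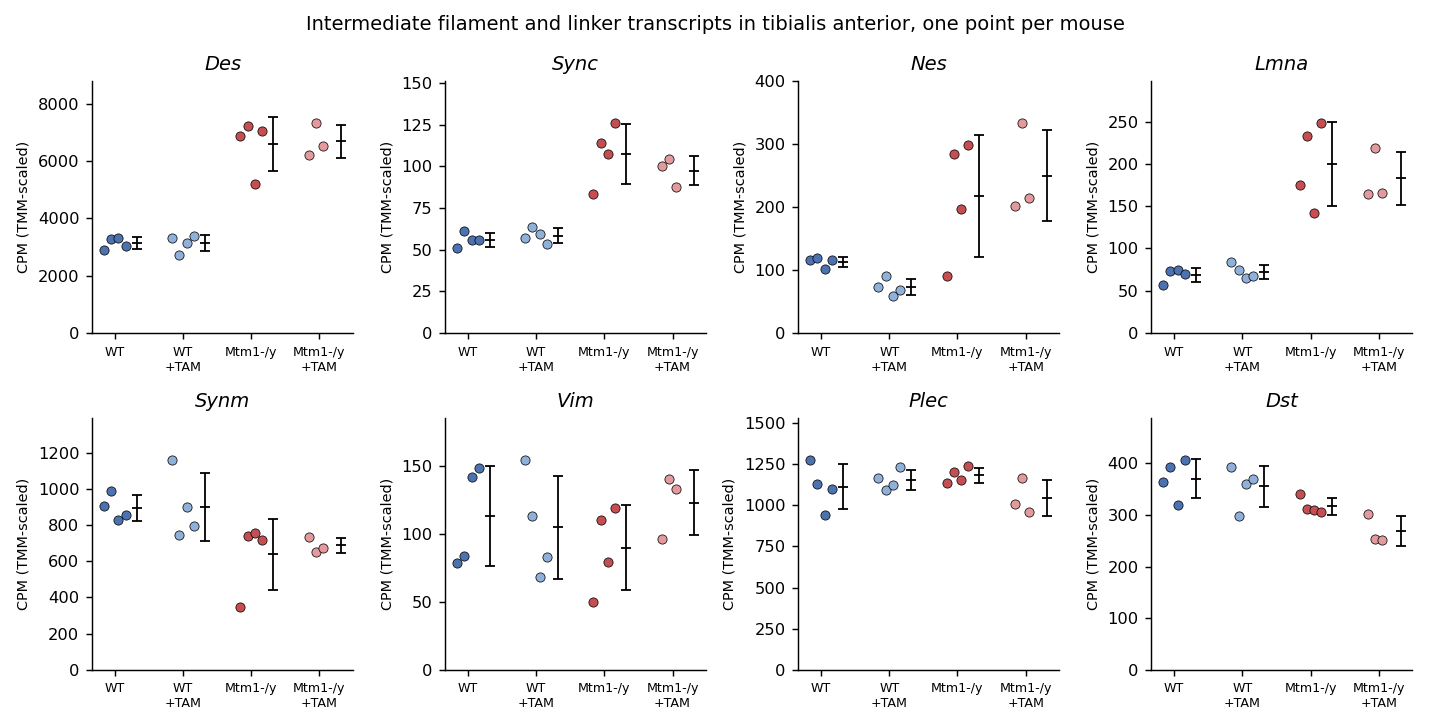
Level of each of the 8 genes in CPM (linear axis from 0) in every mouse, with 1 point per library, 4 groups per panel, and the group mean and SD as a black bar beside the points. *Des*, *Sync* and *Lmna* show mutant points above every wild-type point, *Nes* has 1 low Mtm1-/y mouse at 90.0 CPM, and *Synm* has 1 Mtm1-/y mouse at 346.5 CPM.

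Desmin is the main filament protein of the adult fibre. *Des* measured 2881, 3278, 3308 and 3044 CPM in the WT mice and 6873, 7233, 5192 and 7025 CPM in the Mtm1-/y mice. The lowest mutant was well above the highest WT mouse, and the gap held in every pair of libraries. On the log2 scale the difference was 1.07 (SE 0.12, adjusted p 3.1e-05), or 2.10-fold with a 95% interval of 1.75 to 2.53. *Gm15179*, the antisense gene that overlaps *Des*, went the other way, from 12.6 to 7.78 CPM (log2 fold change -0.70, adjusted p 0.000507).

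Syncoilin is a filament protein that binds desmin and alpha-dystrobrevin at the sarcolemma and the neuromuscular junction. *Sync* measured 50.8, 61.0, 55.7 and 55.7 CPM in the WT mice and 83.2, 114, 107.5 and 126 CPM in the mutants. The groups did not overlap, and Mtm1-/y replicate 1 was the lowest of the mutants. The difference was 0.95 on the log2 scale (SE 0.12, adjusted p 4.46e-05). *Rbbp4*, whose exons overlap those of *Sync*, was not called (52.8 CPM in the WT mice and 62.6 CPM in Mtm1-/y, adjusted p 0.0728).

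Nestin is a large filament protein of muscle progenitors and regenerating fibres that persists at neuromuscular and myotendinous junctions and is also made by endothelial cells. *Nes* measured 117, 119, 101 and 115 CPM in the WT mice and 90.0, 284.6, 197.1 and 299.5 CPM in the mutants. In 3 mutants it was above every WT mouse, and in Mtm1-/y replicate 1 it was below them all. The summed level of 6 endothelial markers, cells that also make nestin, was 235.8 to 319.4 CPM in the Mtm1-/y group and 445.8 to 584.2 CPM in the WT group, and their part in the level of *Nes* was not tested. The fitted difference of *Nes* was 0.95 (log2; SE 0.29, adjusted p 0.0238), and the call depended on the mice and the setting of the fit. Without Mtm1-/y replicate 1, the mutant below the WT mice, the difference of *Nes* was 1.205 (adjusted p 0.000331), and the adjusted p was 0.000485 without both libraries that stood apart. The call was lost in 6 other fits: without Mtm1-/y replicate 4 the adjusted p was 0.0702 and with only the untreated groups in the fit it was 0.0529. The adjusted p was also over 0.05 without WT replicate 3 (0.06), without WT replicate 4 (0.0512), without Mtm1-/y replicate 2 (0.07) and with no filter on low counts (0.0751).

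Lamins A and C line the nucleus and connect it to the cytoskeleton. *Lmna* showed the largest log2 fold change of the 8 genes, with 56.3, 73.2, 75.1 and 70.3 CPM in the WT mice and 175.3, 233, 141.4 and 248.3 CPM in the mutants. Each mutant exceeded every WT mouse. Its log2 fold change was 1.54 (SE 0.17, adjusted p 1.76e-05), and it stayed between 1.42 and 1.69 when each library was left out in turn.

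Synemin copolymerises with desmin and vimentin and links filaments to costameres. *Synm* measured 907.3, 990.9, 829.4 and 855.6 CPM in the WT mice and 346.5, 739.1, 757.6 and 718.7 CPM in the mutants. Every mutant was below every WT mouse, a separation found in either direction for 30.5% of all tested genes, and Mtm1-/y replicate 1 was far below the other mutants. *Synm* differed by a log2 fold change of -0.48 with a 95% interval of -0.91 to -0.06 and an adjusted p of 0.0811, so the gene was not called. Without Mtm1-/y replicate 1 and WT + TAM replicate 1 the log2 fold change was -0.28 and the adjusted p 0.0308, whereas without Mtm1-/y replicate 1 alone the adjusted p of *Synm* was 0.131.

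Vimentin is the filament protein of fibroblasts, endothelial cells and immature muscle. *Vim* was among the most scattered of the 8 genes, with 78.3, 84.0, 142.1 and 148.4 CPM in the WT mice and 50.2, 110.4, 79.3 and 118.9 CPM in the mutants. The groups overlapped widely. The log2 fold change was -0.34 with a 95% interval of -1.01 to 0.34 (adjusted p 0.445), so a fall to 0.497-fold and a rise to 1.26-fold both lay within the interval. Without Mtm1-/y replicate 1 the log2 fold change of *Vim* was -0.14 (adjusted p 0.773). The summed level of 6 fibroblast markers was 333.2 CPM in Mtm1-/y replicate 1, the lowest of all libraries, and *Vim* was also lowest there. The summed level was 3093 CPM in WT + TAM replicate 1, the highest of all, and *Vim* was also highest there, at 154.7 CPM, and the part of these cells in the level of *Vim* was not tested.

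The plakins plectin and dystonin bind filaments to Z-discs, organelles and the other cytoskeletal systems. *Plec* measured 1277, 1130, 942.5 and 1098 CPM in the WT mice and 1134, 1202, 1154 and 1239 CPM in the mutants, with overlap. Its log2 fold change was 0.09 with a 95% interval of -0.14 to 0.31 (adjusted p 0.561). *Dst* measured 363.3, 392.7, 319.6 and 407.2 CPM in the WT mice and 340.0, 311.2, 309.5 and 305.7 CPM in the mutants. Its log2 fold change was -0.23 with a 95% interval of -0.46 to 0.00 (adjusted p 0.124), and only the lowest WT mouse lay within the range of the mutants.

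**Figure D2:**
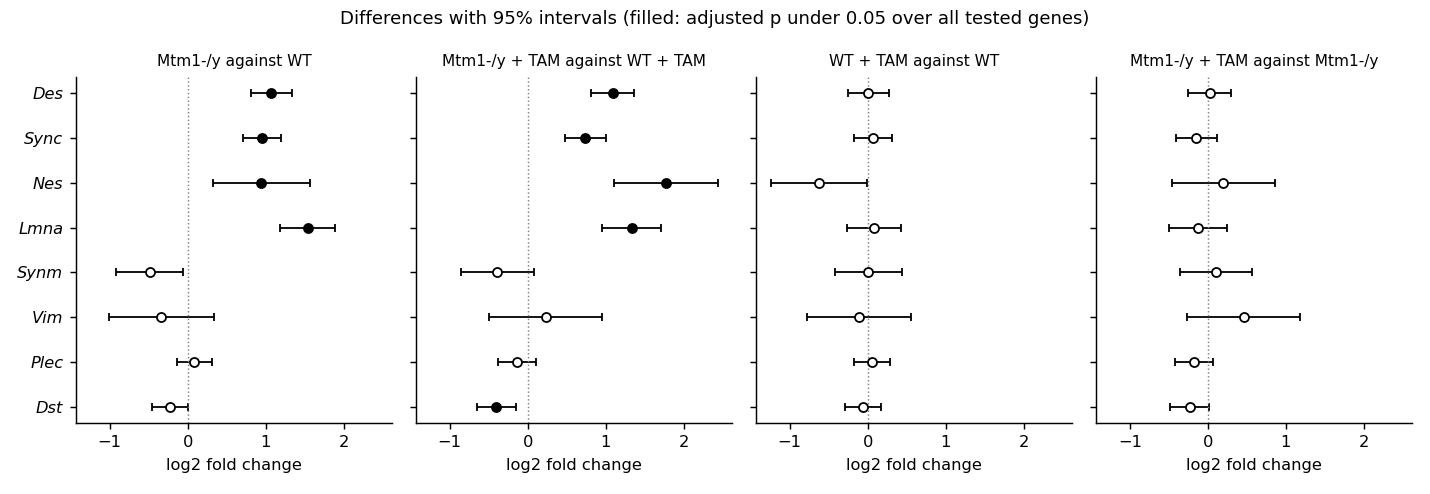
Log2 fold change of each of the 8 genes in 4 comparisons, with 95% intervals from the edgeR fit as bars and a dotted line at 0. Filled points (adjusted p under 0.05) stand at *Des*, *Sync*, *Nes* and *Lmna* in both comparisons of mutant with wild type and at *Dst* under tamoxifen, and there are none in the comparisons of treated with untreated mice.

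Treated mutants were set against treated wild types to ask how the genotypes differed when both received tamoxifen. Here 5 of the 8 genes were called against 20.1% of all tested genes (10.6% higher and 9.46% lower). *Des*, *Sync*, *Nes* and *Lmna* were again higher, and *Dst* was lower. *Des* measured 3322, 2728, 3135 and 3372 CPM in WT + TAM and 6193, 7319 and 6530 CPM in Mtm1-/y + TAM mice, without overlap (log2 fold change 1.09, SE 0.13, adjusted p 6.98e-05). *Sync* measured 56.8, 63.9, 59.3 and 53.2 CPM in WT + TAM and 100.4, 104.2 and 87.5 CPM in Mtm1-/y + TAM mice (0.74, SE 0.12, adjusted p 0.000871). The treated mutants were above every treated wild type for both genes.

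*Nes* had the widest separation among treated mice, with 73.8, 90.5, 59.4 and 69.1 CPM in WT + TAM and 201.9, 333.6 and 214.8 CPM in Mtm1-/y + TAM mice. On the log2 scale it differed by 1.77 (SE 0.31, adjusted p 0.00171), and it was called in each fit without a library. *Lmna* measured 83.4, 74.2, 65.1 and 67.6 CPM in WT + TAM and 164.1, 219.2 and 165.3 CPM in Mtm1-/y + TAM mice (1.33, SE 0.18, adjusted p 0.000141). Neither gene overlapped between the groups.

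*Dst* measured 392.2, 298.8, 361.0 and 369.7 CPM in WT + TAM and 302.8, 254.0 and 251.3 CPM in Mtm1-/y + TAM mice. The groups overlapped by 1 mouse on each side, the log2 fold change was -0.40 (SE 0.12), and the adjusted p was 0.0261. The adjusted p rose to 0.058 with only these groups in the fit, and to between 0.0565 and 0.111 without replicate 3 or 4 of WT + TAM or replicate 2 or 3 of Mtm1-/y + TAM. *Synm* measured 1163, 743.8, 901.5 and 797.1 CPM in WT + TAM and 736.4, 653.4 and 675.2 CPM in Mtm1-/y + TAM mice. Its groups did not overlap, which was so for 31.6% of all tested genes, and it was not called (log2 fold change -0.39, adjusted p 0.23). Without WT + TAM replicate 1, the mouse with the highest *Synm* here, the log2 fold change was -0.243 (adjusted p 0.453). Without both libraries that stood apart it was -0.242 (adjusted p 0.0773). *Synm* was called without Mtm1-/y replicate 1 alone, a mouse of neither group, at an adjusted p of 0.0426. *Vim* (0.23, adjusted p 0.677) and *Plec* (-0.14, adjusted p 0.416) were not called.

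Against untreated WT mice, the Mtm1-/y + TAM mice had 5 of the 8 genes called, against 23.3% of all tested genes (11.9% higher and 11.3% lower). Both this comparison and the first share the WT mice, and it shares the treated mutants with the second. The log2 fold changes were 1.09 for *Des* (adjusted p 5.86e-05), 0.80 for *Sync* (0.000375), 1.147 for *Nes* (0.0162), 1.41 for *Lmna* (8.07e-05) and -0.46 for *Dst* (0.0112). Without Mtm1-/y + TAM replicate 2, the mouse with the highest *Nes*, 3 genes were called, and *Nes* (0.0894) and *Dst* (0.0572) were not. The call of *Dst* was also lost when replicate 3 of the treated mutants was left out (0.056), and that of *Nes* with no filter on low counts (0.0581). *Synm* did not overlap, as 41.4% of all tested genes did not, and was not called (-0.38, adjusted p 0.229), but its adjusted p was 0.00518 with only these groups in the fit, 0.0432 without Mtm1-/y replicate 1 and 0.00576 without both libraries that stood apart.

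Tamoxifen within each genotype was the second factor of the design. Among Mtm1-/y mice, 0 of the 8 genes were called between treated and untreated muscle with edgeR, limma-voom or DESeq2. With edgeR, 0.0129% of all tested genes were called here. An unadjusted p under 0.05 was found for 0 of the 8 genes and for 861 of the 15533 genes tested. Counts of 0 among 8 genes are near these shares and are no result about the 8 genes. *Des* differed by 0.02 on the log2 scale, or 1.01-fold with a 95% interval of 0.835 to 1.23. *Lmna* (0.917-fold, 0.706 to 1.19) and *Sync* (0.904-fold, 0.754 to 1.08) had intervals that reached no higher than 1.19-fold and no lower than 0.706-fold. *Nes* (0.20 on the log2 scale, -0.46 to 0.86) and *Vim* (0.46, -0.26 to 1.18) were measured less tightly. *Dst* was below the whole range of the untreated mutants in all 3 treated mice (251.3 to 302.8 against 305.7 to 340.0 CPM), a separation found for 5.71% of all tested genes, with a log2 fold change of -0.23 and an adjusted p of 0.855.

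In wild-type mice, 0 of the 8 genes were called between WT + TAM and WT with edgeR, limma-voom or DESeq2, against 0.309% of all tested genes, and 1 gene, *Nes*, had an unadjusted p under 0.05, as did 1757 of the 15533 genes tested. Every treated mouse (59.4 to 90.5 CPM) had less *Nes* than every untreated one (101.3 to 118.6 CPM), and 8.08% of all tested genes were separated in either direction. The log2 fold change of *Nes* was -0.63 (95% interval -1.25 to -0.01, unadjusted p 0.0475, adjusted p 0.437). *Des* differed by 0.01 (-0.26 to 0.27), *Lmna* by 0.08 (-0.27 to 0.43) and *Sync* by 0.06 (-0.18 to 0.31) on the same scale.

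The test of the difference between these tamoxifen effects, the interaction of genotype with tamoxifen, called 0 of the 8 genes and 0 genes in all with edgeR (0% of those tested), where 1650 genes had an unadjusted p under 0.05 and DESeq2 called 74. None of the 8 had an unadjusted p under 0.05. The interaction was 0.83 on the log2 scale for *Nes* (95% interval -0.08 to 1.73, adjusted p 0.502) and 0.02 for *Des* (-0.37 to 0.40, adjusted p 0.983). Without Mtm1-/y replicate 1 the interaction of *Nes* was 0.57 (adjusted p 0.559).

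The make-up of the network was followed by ratios to *Des* within a library, which do not depend on how libraries are scaled. Per kb of exon, *Synm* was 13.6% ± 1.33 of *Des* in WT (SD, n = 4), 13.6% ± 2.24 in WT + TAM (SD, n = 4), 4.74% ± 1.85 in Mtm1-/y (SD, n = 4) and 4.91% ± 0.701 in Mtm1-/y + TAM mice (SD, n = 3). The highest mutant library, at 6.91%, was below the lowest wild-type library, at 11.2%. *Vim* was 2.86% ± 0.909 of *Des* in WT and 1.08% ± 0.343 in Mtm1-/y mice (SD, n = 4 each), and its highest mutant library, at 1.61%, was below its lowest wild-type one, at 1.73%. *Sync* was 2.34% ± 0.104 in WT and 2.18% ± 0.477 in Mtm1-/y mice, with overlap. *Nes* was 2.12% ± 0.244 in WT and 1.95% ± 0.795 in Mtm1-/y mice and also overlapped. *Des*, the divisor, was itself 2.10-fold higher in Mtm1-/y than in WT mice, and *Synm* and *Vim* were not called, so a lower ratio need not mean less of either. Without Mtm1-/y replicate 1, the lowest untreated mutant for each ratio, the Mtm1-/y means were 5.53% (*Synm*), 1.25% (*Vim*), 2.38% (*Sync*) and 2.34% (*Nes*). How often other genes separate so by their ratio to *Des* was not counted. These ratios are descriptions and were not tested.

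**Figure D3:**
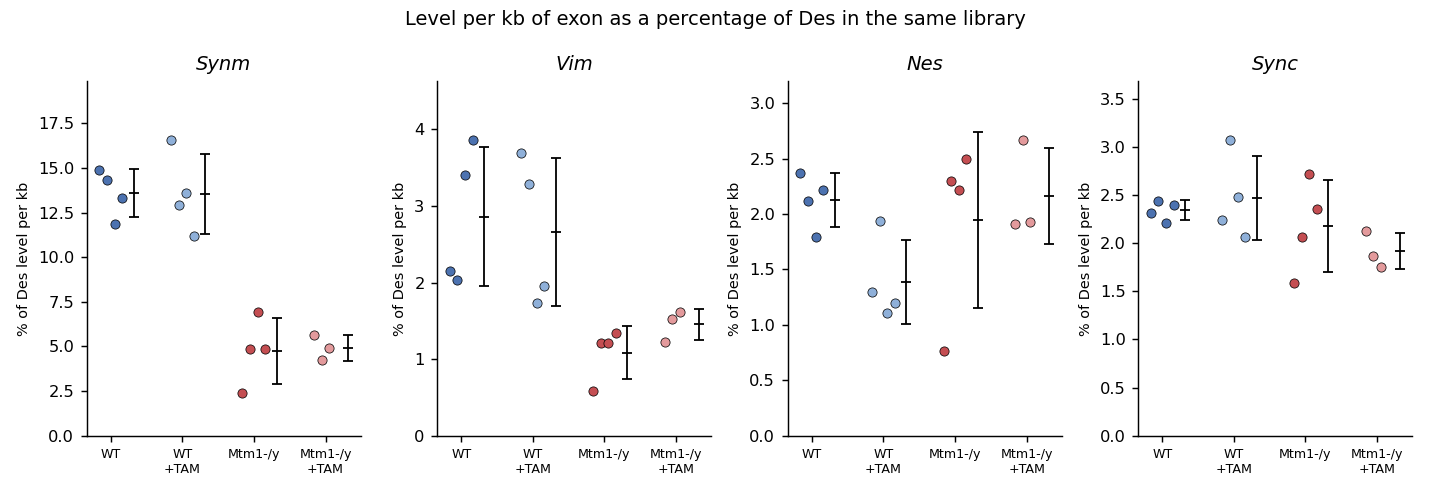
Level per kb of *Synm*, *Vim*, *Nes* and *Sync* as a percentage of *Des* in the same library (linear axes from 0), 1 point per mouse, with the group mean and SD beside the points. *Synm* and *Vim* points of the mutants lie below all wild-type points, whereas those of *Nes* and *Sync* overlap.

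The wider family was read from lists of genes by role, where the background was the 30.4% of all tested genes called between Mtm1-/y and WT (15.5% higher and 14.9% lower). Every list was chosen with earlier results of these data known, so the counts below are descriptions and not independent results. Of 17 other cytoplasmic intermediate filament genes, 10 passed the filter and 6 were called between Mtm1-/y and WT, with 5 higher (*Krt8*, *Krt18*, *Krt80*, *Krt7* and *Iffo1*) and 1 lower (*Nefh*). Their median log2 fold change was 0.37. *Krt8* had at most 5 counts in any wild-type library, under the filter's minimum of 10, so it was tested only through the mutants, where it was high. *Krt18*, with 4 to 17 counts in the WT and 2 to 7 in the WT + TAM libraries, also passed the filter only through the mutants. *Krt7*, with a mean of 0.0626 CPM in the WT mice, was near the floor there too. The filter thus favoured the calls of these genes as higher, and the share called in this list is read with that limit. *Krt8* and *Krt18* encode the partner keratins of simple epithelia, which are also found at low level in muscle. *Krt18* had 0.148, 0.198, 0.177 and 0.499 CPM in the WT mice and 21.1, 25.7, 4.29 and 36.9 CPM in the mutants (log2 fold change 6.38, SE 0.73, adjusted p 6.62e-05). *Krt8* was at 0 in WT replicates 1 and 3, at 2 counts each in the other two, and at 4.37, 4.24, 0.763 and 6.38 CPM in the Mtm1-/y mice. Over the pooled libraries its ratio was 128 (4 counts against 581, 95% counting interval 49.7 to 471, Clopper-Pearson). Mtm1-/y replicate 3 was the lowest mutant for both keratins.

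*Krt80*, a keratin of differentiating epithelia, had 0.812, 0.593, 0.62 and 0.909 CPM in the WT mice and 29.8, 18.2, 5.97 and 17.4 CPM in the mutants (log2 fold change 4.57, SE 0.47, adjusted p 2.31e-05). *Krt7* rose from 0.0626 to 0.622 CPM (adjusted p 0.00246) and *Iffo1* from 23.9 to 33.0 CPM (adjusted p 0.004), and the neurofilament gene *Nefh* fell from 0.874 to 0.227 CPM (adjusted p 0.0167), with overlap between the groups. *Krt19*, which pairs with *Krt8* at costameres, had a log2 fold change of -0.65 (95% interval -1.57 to 0.28) and was not called. All these keratin levels were low beside *Des*: *Krt18*, the highest of *Krt8*, *Krt18* and *Krt80* per length, stood at 15.3 CPM per kb in Mtm1-/y muscle, against 1753 for *Des*. Beside less abundant members it was not low, with *Vim* at 18.9 and *Dst* at 7.69 CPM per kb in the same mice. *Krt8* has an annotated processed pseudogene, *Krt8-ps*, and the treatment of reads that match both is unknown here.

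**Figure D4:**
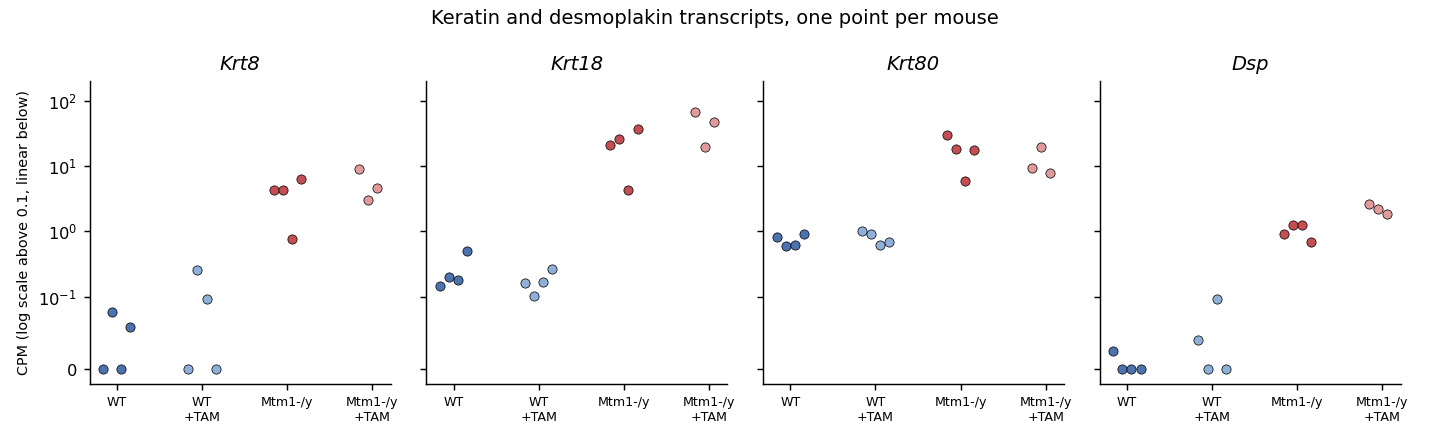
Levels of *Krt8*, *Krt18*, *Krt80* and *Dsp* in CPM in every mouse (1 point each), on an axis that is logarithmic above 0.1 CPM and linear below it. The mutant points, treated or not, lie above all wild-type points in each panel.

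Of 5 other plakin genes, 3 passed the filter and 2 were called, *Dsp* and *Macf1*, both higher in Mtm1-/y mice. *Dsp* encodes desmoplakin, which anchors desmin or keratin filaments at desmosomes. It had 1 count in the 4 WT libraries together and 0.915, 1.25, 1.27 and 0.694 CPM in the Mtm1-/y mice, a pooled ratio of 121 (1 count against 137, 95% counting interval 21.3 to 4800). With at most 4 counts in any wild-type library, *Dsp* too passed the filter only through the mutants, which favoured its call as higher. *Macf1*, a linker of actin and microtubules closely related to dystonin, had 77.9, 91.1, 78.5 and 83.3 CPM in the WT mice and 113.5, 172.1, 101.4 and 169.4 CPM in the mutants (0.75, SE 0.16, adjusted p 0.00258). Of the 3 large plakins of muscle, *Macf1* rose, while *Plec* and *Dst* were not called.

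Of 16 genes for chaperones and enzymes that act on desmin, 10 were higher and 1 was lower in Mtm1-/y mice, beside 15.5% and 14.9% of all tested genes, with a median log2 fold change of 0.56. The largest differences were those of *Hspb7*, *Hspb1* and *Hspb8*, which encode small heat shock proteins, and *Hspb2* and *Hspb6* of the same family were not called. *Hspb7* had 297, 892.3, 612 and 578.3 CPM in the WT mice and 2042, 2105, 1740 and 2551 CPM in the mutants (1.83, SE 0.40, adjusted p 0.0041). *Hspb1* had 13.8, 20.8, 16.2 and 14.1 CPM in the WT mice and 48.4, 64.5, 40.0 and 53.3 CPM in the mutants (1.67, SE 0.16, adjusted p 6.44e-06). *Hspb8*, the partner of the co-chaperone *Bag3*, rose from 307 ± 25.7 to 896.4 ± 292.5 CPM (SD, n = 4 each; 1.55, SE 0.18, adjusted p 3.1e-05).

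Alpha-B-crystallin, the chaperone best known for binding desmin, is encoded by *Cryab*, which had a log2 difference of 0.65 (SE 0.23, adjusted p 0.041) and overlapping groups. The other higher genes were *Trim63*, *Capn2*, *Dnajb6*, *Bag3*, *Hspb3* and *Capn1*, with log2 fold changes from 1.41 down to 0.46. *Capn3*, the muscle calpain, was lower (-0.87, SE 0.14, adjusted p 0.000401). The desmin ubiquitin ligase gene *Trim32* was not called (0.01, 95% interval -0.25 to 0.28).

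Of 15 Z-disc and costamere anchors, 4 were higher (*Actn2*, *Flnc*, *Ank3* and *Tln1*) and 3 were lower (*Dtnb*, *Tln2* and *Ank2*), with a median log2 fold change of 0.16. This was 46.7% called, beside 30.4% of all tested genes. *Actn2*, the alpha-actinin of the Z-disc, rose from 1434 ± 221.5 to 2552 ± 433.8 CPM (SD, n = 4 each; 0.83, SE 0.22, adjusted p 0.0115). *Flnc*, filamin C, rose from 1236 ± 519.4 to 2165 ± 300.9 CPM (SD, n = 4 each; 0.81, SE 0.27, adjusted p 0.0314), with overlap at WT replicate 2. The dystrobrevin gene *Dtnb* fell from 2.59 to 1.37 CPM (adjusted p 0.0292). *Dtna*, which encodes the syncoilin partner alpha-dystrobrevin, was not called (0.30, 95% interval 0.03 to 0.56). The count of 7 fell to 4 without WT replicate 3, WT replicate 4 or Mtm1-/y replicate 4, or 4 of 15. Between Mtm1-/y + TAM and WT + TAM mice, 1 of these 15 genes was higher and 3 were lower. This was 26.7% called, beside 20.1% of all tested genes.

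Of 16 genes of the nuclear lamina and envelope, 2 were higher (*Tmem43* and *Emd*) and 2 lower (*Lmnb1* and *Syne2*), or 25% of those tested, which is no more than the 30.4% of all tested genes called in this comparison. *Lmnb1*, which encodes a B-type lamin, had 6.37, 6.20, 8.59 and 7.89 CPM in the WT mice and 2.96, 2.86, 3.56 and 4.37 CPM in the mutants (-1.07, SE 0.17, adjusted p 0.000429). *Lmnb2*, the other B-type lamin gene, was not called (-0.76, adjusted p 0.0599). *Tmem43*, an inner membrane protein known as LUMA, rose from 41.6 ± 1.77 to 98.3 ± 30.6 CPM (SD, n = 4 each; 1.24, SE 0.20, adjusted p 0.000482). The emerin gene *Emd* rose from 20.4 ± 2.00 to 31.1 ± 3.91 CPM (SD, n = 4 each; 0.61, SE 0.10, adjusted p 0.000367), and the nesprin gene *Syne2* fell from 31.7 to 22.8 CPM (adjusted p 0.00349). The count of 4 was 7 without Mtm1-/y replicate 3. Between Mtm1-/y + TAM and WT + TAM mice, 1 of these 16 genes was higher and 3 were lower, beside 20.1% of all tested genes called.

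All 10 developmental and denervation genes were called, 9 higher and 1 lower, beside 30.4% of all tested genes. Like the others, this list was chosen with earlier results of these data known, so this count is a description and not an independent result. *Runx1*, a transcription factor induced in denervated muscle, rose from 1.60 ± 0.239 to 18.03 ± 7.21 CPM (SD, n = 4 each; 3.48, SE 0.35, adjusted p 1.61e-05), and *Ncam1* rose from 9.55 ± 2.04 to 66.7 ± 26.9 CPM (SD, n = 4 each; 2.80, SE 0.30, adjusted p 3.1e-05). The gene that fell was the cardiac actin gene *Actc1*, from 5059 ± 2445 to 473.9 ± 383.4 CPM (SD, n = 4 each; -3.42, SE 0.98, adjusted p 0.0192). Its level ranged from 228.4 to 5438 CPM in WT + TAM and from 392.8 to 848.3 CPM in Mtm1-/y + TAM mice. Between these treated groups 8 of the 10 genes were higher, beside 10.6% of all tested genes, and 0 were lower, so *Actc1* was not called lower there. In both tamoxifen comparisons and in the interaction, 0 genes of these 6 lists were called. Of all tested genes, 0.0129% were called between treated and untreated mutants, 0.309% between WT + TAM and WT, and 0% in the interaction. A count of 0 is near these shares and is no result about the lists.

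**Figure D5:**
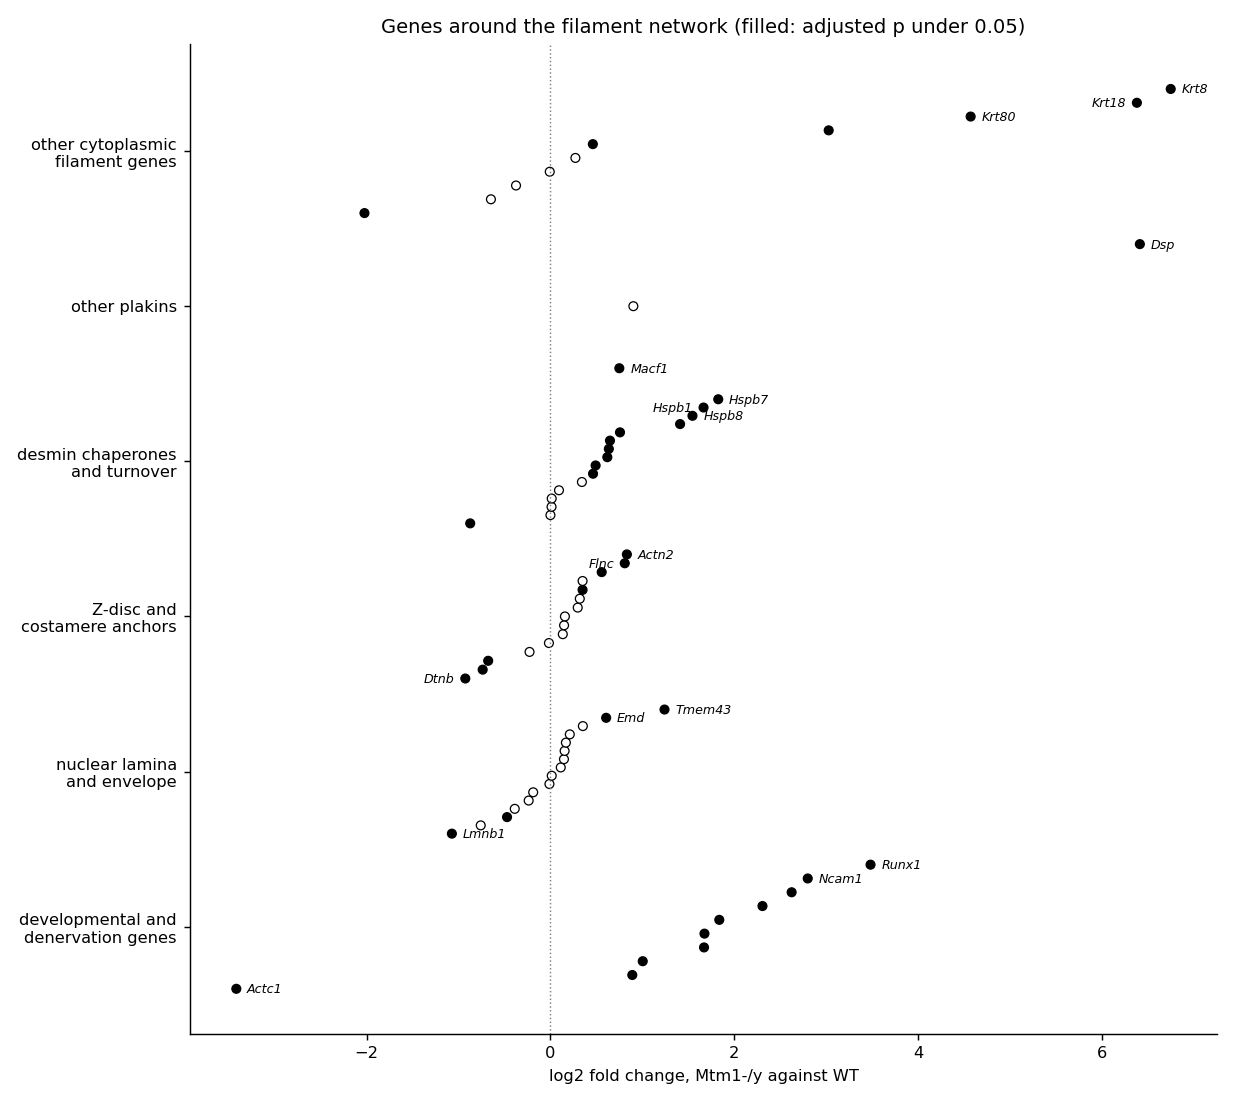
Log2 fold change between Mtm1-/y and WT for each tested gene of the 6 lists, with 1 point per gene, filled where the adjusted p was under 0.05, and the 3 largest calls of each list named. The keratins and *Dsp* lie furthest to the right, and *Actc1* furthest to the left.

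Marker genes of the cell types of muscle were set beside these results. Between Mtm1-/y and WT, 30.4% of all tested genes were called (15.5% higher and 14.9% lower). None of the marker lists described here had a gene at 0 in every library of a group, and the fibre markers *Acta1*, *Ckm*, *Myh4*, *Myh1*, *Ttn* and *Tnnt3* summed to at least 129300 CPM in each library. Endothelial markers were lower in Mtm1-/y than in WT mice for 6 of 6 genes (summed 235.8 to 319.4 CPM against 445.8 to 584.2 CPM), and so were 3 of 6 smooth muscle and pericyte markers (384 to 482.1 against 583 to 730.4 CPM). Of the fibroblast markers 1 of 6 was called, *Pdgfra*, which was higher (333.2 to 1348 against 997.5 to 1286 CPM summed). Satellite cell markers were mixed, with *Pax7*, *Calcr* and *Vcam1* lower and *Sdc4* higher. Of 6 macrophage markers *Cd68* and *Cd14* were higher and 4 were not called, and 3 fibre markers, *Acta1*, *Ttn* and *Tnnt3*, were lower. The called shares of fibroblast (16.7%) and macrophage markers (33.3%) were below or near that of all tested genes. Vimentin and nestin are made in several of these cell types, and the part of cell make-up in their levels was not tested.

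The genes with the pattern most like each member were found from the root mean square difference of log2 CPM, each centred on the WT mean, over all 15 libraries, as a description with no test. For *Des* they were *Asl* (0.14), *Pdlim3* (0.14), *Usp20* (0.15), *Chrnb1* (0.15) and *Nol3* (0.15), where the median over 13436 protein-coding genes was 0.82. *Pdlim3* encodes a PDZ-LIM protein of the Z-disc and *Chrnb1* a subunit of the muscle acetylcholine receptor. The nearest genes were *Wsb2* and *Tmbim4* for *Sync* (0.14 each), *Cyb5r3* (0.13) and *Fam214b* (0.16) for *Lmna*, and *Lgals1* (0.24) and *Mpzl3* (0.27) for *Nes*. They were *Phka1* (0.14) and *Ulk2* (0.15) for *Synm*, *Ddah2* (0.21) and *Itm2c* (0.23) for *Vim*, *Zc3h7b* (0.08) and *Wdfy3* (0.09) for *Plec*, and *Clip1* and *Nsun3* (0.10 each) for *Dst*. The libraries share their genotype and treatment groups, so likeness includes the common difference between mutants and wild types.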

How the data were processed

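Poly(A) RNA of tibialis anterior, extracted with TRI Reagent, was sequenced from TruSeq stranded libraries of 15 mice. The values deposited by the authors are raw counts of reads for each Ensembl gene, not normalized. Per the submitters' processing notes, which give no roles, the tools were STAR 2.5.3a, HTSeq 0.6.1p1, Bowtie2 2.2.8 and cutadapt 1.10, with GRCm38. All 30672 identifiers matched GENCODE M21.

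Groups came from the labels. Counts were fitted with edgeR 4.0.16 (R 4.3.3; filterByExpr, minimum count 10; TMM; robust quasi-likelihood with 4 group means over all 15 libraries, 11 residual degrees of freedom), two-sided, with Benjamini-Hochberg adjustment over 15533 tested genes and a threshold of 0.05. CPM is the count over the effective library size of the fit, and log2 CPM has a prior count of 2. Intervals are 95%. Counting intervals cover counting error only. The code was tested on simulated counts. Comparison of replicates found no library deposited more than once. The labels do not name separate litters or batches, so p-values measure the spread between these mice.

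The members and lists were chosen with earlier results of these data known. Besides the 8 genes and *Mtm1*, the text names the 3 largest calls of each list between Mtm1-/y and WT, genes on which a count of 5 or fewer rests, cell type markers and the genes nearest in pattern. *Krt7*, *Iffo1*, *Krt19*, *Trim32*, *Dtna* and the other chaperones and enzymes named were added after their values were seen. Alternatives were RLE and upper-quartile factors, no filter and a stricter one (1 CPM), DESeq2 1.42.0, limma-voom (limma 3.58.1), a replicate block, only the groups compared, each library left out, both libraries that stood apart left out, and the longest transcript as length. Replicate numbers were not used as pairs in the main fit, and whether they pair mice is unknown. The result of 1 marker list is not reported here.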

Additional observations from a re-analysis of the deposited data

Results flagged for a closer look

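In 78 groups of 4 libraries, 9 values stood apart from the other 3 of their group by Dixon's test, where chance gives about 1 in 20 groups. Among the filament genes these were *Synm* at 346.5 CPM and *Dst* at 340.0 CPM, both in Mtm1-/y replicate 1, which was low for *Synm* and high for *Dst*. In WT mice they were *Flnc* at 2009 CPM in replicate 2, *Krt18* at 0.499 CPM in replicate 4 and *Dsp* at 0.0246 CPM (1 count) in replicate 1. In WT + TAM mice they were *Actn2* at 2345 CPM and *Macf1* at 94.2 CPM, both high in replicate 4, *Dtnb* at 2.78 CPM, high in replicate 1, and *Hspb1* at 12.3 CPM, low in replicate 3. The causes were not tested.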

How the results depend on the processing

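For the 8 genes between Mtm1-/y and WT, 185 of the alternative values kept their direction and side of the threshold, 6 (all *Nes*) lost the call and 1 (*Synm*) gained it. The called number was 3 with no filter and with only the groups compared, 5 without both libraries that stood apart, and 4 otherwise with all libraries. Leaving out each library gave 3 to 4 for this comparison, 4 to 6 for Mtm1-/y + TAM against WT + TAM, 3 to 6 for Mtm1-/y + TAM against WT, and 0 for the tamoxifen comparisons and the interaction.

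Directions that changed were all of differences that were not called. For WT + TAM against WT, *Des* and *Synm* were -0.0101 and -0.0027 with upper-quartile factors, -0.003 and -1e-04 with no filter, -0.0012 and -0.0113 with limma-voom, and -0.0224 and -0.1372 without both libraries that stood apart. Without those libraries, *Nes* and *Synm* were -0.0574 and -0.1013 between treated and untreated mutants. The interaction of *Des* was -0.0056 with RLE factors and with DESeq2. Left-out libraries gave ranges, for WT + TAM against WT, of -0.032 to 0.0668 (*Des*), -0.3599 to 0.0481 (*Vim*), -0.1377 to 0.0904 (*Synm*), -0.0174 to 0.1277 (*Plec*), -0.1255 to 0.0139 (*Dst*) and -0.0054 to 0.1288 (*Lmna*). For treated against untreated mutants they gave -0.0877 to 0.0743 (*Des*), -0.064 to 0.3935 (*Nes*) and -0.1015 to 0.1816 (*Synm*), for Mtm1-/y + TAM against WT -0.0194 to 0.2802 (*Vim*), and for the interaction -0.0926 to 0.0702 (*Des*) and -0.1109 to 0.2418 (*Synm*). The cause was not tested.

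Of the lists, nuclear lamina and envelope genes called between Mtm1-/y and WT numbered 4 to 7 over left-out libraries and 7 without both that stood apart, and Z-disc and costamere anchors 4 to 7. By the longest transcript, WT levels were 1033 (*Des*), 38.7 (*Vim*), 23.95 (*Sync*), 71.96 (*Plec*), 15.9 (*Dst*) and 17.4 CPM per kb (*Lmna*). Over all genes, WT + TAM against WT gave 48 calls, 11 to 143 with a library left out, 298 with DESeq2 and 347 without both apart-standing libraries. Treated against untreated mutants gave 2 calls (0 to 5 with a library left out, 4 with DESeq2, 7 without both), and the interaction gave 0 (0 to 7, 74 and 14). Without Mtm1-/y + TAM replicate 2, calls fell from 3121 to 1656 against WT + TAM and from 3615 to 2188 against WT. Upper-quartile factors split the calls between Mtm1-/y and WT into 2081 higher and 2721 lower.

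A replicate block called 4, 5 and 5 of the 8 genes in the mutant comparisons, as without it, and changed no call of the 8 genes. Same-numbered mice had correlations of -0.113 to 0.306 over 21 pairs, 6 of them over 0.1. Mice of different numbers were not compared in this way, so the check cannot say whether the numbers pair mice.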
